A study of Mus musculus with 16 samples.

Results

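Oxidative phosphorylation is carried out by 5 protein complexes of the mitochondrial inner membrane, and the transcripts of their nuclear-encoded subunits were followed here in the left ventricle of mice under pressure overload. The members were all non-control probes whose array gene name begins with Nduf, Uqcr, Cox4, Cox5, Cox6, Cox7, Cox8 or Atp5, or is Sdha, Sdhb, Sdhc, Sdhd, Cyc1 or Cycs, with the brightest probe standing for each gene. This gave 84 of the 27962 gene names on the array. Complex I held 35 of them, complex II 4, complex III 8, complex IV 17 and complex V 15, and cytochrome c (Cycs) stood alone. The prefixes also caught 4 names that are not subunits or are not counted as such. Ndufaf1 is an assembly factor of complex I, and Cox7a2l is a factor known from supercomplexes of complexes III and IV. Cox4nb is named after its neighbour Cox4i1 and has no role in the chain, and Atp5s is a factor associated with the synthase. Ndufa4 was counted with complex IV, where the protein is now placed.

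The study used 16 mice on a C57BL/6 N background after 7 generations of backcrossing, each on 1 one-colour Agilent array, in 4 groups of 4 mice with 2 males and 2 females each. The groups were NOS3-TG mice 10 weeks after transverse aortic constriction (TAC, a band on the aortic arch that makes the left ventricle pump against a higher pressure), NOS3-TG mice at baseline, WT littermates 10 weeks after TAC and WT littermates at baseline. The NOS3-TG line carries a transgene for endothelial nitric oxide synthase (Nos3) that the cardiomyocyte promoter of alpha-MHC drives, and the baseline mice were intact and not sham-operated. The labels give the animals as matched for age and weight without stating the age, and describe the tissue as a ring from the middle of the ventricle.

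The respiratory chain passes electrons from NADH at complex I and from succinate at complex II through ubiquinone to complex III, on to cytochrome c and to complex IV, where oxygen is reduced. Complexes I, III and IV pump protons, and complex V, the ATP synthase, uses the proton gradient to make ATP. Heart muscle is packed with mitochondria and draws most of its ATP from this pathway. All complexes but the second also contain subunits encoded in mitochondrial DNA, which the gene-name rule does not reach.

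Signal is given as log2 of the processed spot signal minus the array's own 75th percentile, so that a value of 1 is 1 doubling above that percentile. The 75th percentile lay between 1053 and 1491 signal units, and 44.8% to 68.0% of probes were well above background. NOS3-TG TAC arrays 3 and 4 and NOS3-TG baseline array 2 were the farthest from the median share of 52.5%. Nos3 itself read 6.94 to 7.77 on the NOS3-TG TAC arrays, 7.63 to 8.02 on the NOS3-TG baseline arrays, 1.51 to 1.85 on the WT TAC arrays and 0.96 to 1.45 on the WT baseline arrays, so every array carried the transgene signal its label gives. Of 84 members, 82 were well above background on all 16 arrays, and no member was saturated on any array. Cox4i2 and Cox8c, paralogues of complex IV subunits that are known from lung and testis, were not well above background on any array. The members were bright: 71 of the 82 lay at or above the 95th percentile of mean signal over the 15760 genes tested, each by its brightest probe. Cox6b2, a paralogue known from testis, was the dimmest.

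Transcripts of atrial muscle, which a ventricular ring should lack, were not evenly spread over the arrays. The mean log2 signal of sarcolipin (Sln) and the atrial myosin light chains Myl7 and Myl4 was between 1.74 and 4.68 on the male mice of both TAC groups and between -2.60 and -2.36 on the females. It was 5.21 to 5.67 on 3 NOS3-TG baseline arrays and 2.29 to 5.89 on 3 WT baseline arrays, and -3.71 and -3.42 on the remaining baseline array of each genotype. Values of the members are therefore also given below from fits that hold this signal as a covariate. It entered either as this mean log2 signal or as the summed signal of these genes, both chosen after seeing the data. Each slide held 1 condition and all 4 combinations of genotype and sex at fixed positions, so that genotype and sex cannot be told apart from the position on a slide, and TAC cannot be compared with baseline within a slide. TAC arrays 3 and 4 of both genotypes, on slide 3, were scanned on another day than all other arrays. Scan day is therefore partly confounded with TAC.

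Promoters of several members that fell after TAC in WT hearts carry binding motifs of the factors known to drive nuclear genes of the respiratory chain, and 5 windows are shown because they hold 1 each of the motifs searched, or a pair of them. The windows run from 250 bases before to 50 bases after the annotated start (RefSeq, build GRCm38.p6), 5′ to 3′ on the strand of the gene, with motif letters in capitals. Cytochrome c and the c-ring gene Atp5g2 hold the NRF1 motif GCGCATGCG or its reverse complement CGCATGCGC, and in Atp5g2 the forward and reverse matches overlap. Uqcr (Uqcr11 in RefSeq), a small subunit of complex III, holds the ETS motif CCGGAAGT, which GABP binds, and a reverse NRF1 motif. Sdhd, a membrane anchor of complex II, holds the reverse complement TGACCTTGA of the ERR motif TCAAGGTCA, and Ndufs7, a core subunit of complex I, holds the YY1 motif AAGATGGCG.
Cycs, chr6:50566520-50566819, minus strand: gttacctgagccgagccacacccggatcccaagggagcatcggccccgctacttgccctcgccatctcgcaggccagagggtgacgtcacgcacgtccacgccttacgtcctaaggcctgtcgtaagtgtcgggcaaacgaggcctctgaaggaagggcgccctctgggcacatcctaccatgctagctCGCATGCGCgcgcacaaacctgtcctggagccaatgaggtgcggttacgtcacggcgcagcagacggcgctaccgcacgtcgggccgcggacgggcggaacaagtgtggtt
Atp5g2, chr15:102670998-102671297, minus strand: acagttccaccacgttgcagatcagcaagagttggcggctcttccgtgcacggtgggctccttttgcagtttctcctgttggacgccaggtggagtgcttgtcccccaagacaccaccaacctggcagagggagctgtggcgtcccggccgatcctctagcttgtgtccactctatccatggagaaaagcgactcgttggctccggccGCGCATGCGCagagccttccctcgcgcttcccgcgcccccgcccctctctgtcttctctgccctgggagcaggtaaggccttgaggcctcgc
Uqcr, chr10:80406772-80407071, minus strand: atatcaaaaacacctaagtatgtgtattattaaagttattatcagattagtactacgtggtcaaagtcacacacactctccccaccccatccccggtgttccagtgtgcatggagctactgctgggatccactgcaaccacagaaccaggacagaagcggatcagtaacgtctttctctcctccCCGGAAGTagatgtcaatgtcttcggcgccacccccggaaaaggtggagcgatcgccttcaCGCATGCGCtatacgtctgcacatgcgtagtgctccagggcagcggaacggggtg
Sdhd, chr9:50603800-50604099, minus strand: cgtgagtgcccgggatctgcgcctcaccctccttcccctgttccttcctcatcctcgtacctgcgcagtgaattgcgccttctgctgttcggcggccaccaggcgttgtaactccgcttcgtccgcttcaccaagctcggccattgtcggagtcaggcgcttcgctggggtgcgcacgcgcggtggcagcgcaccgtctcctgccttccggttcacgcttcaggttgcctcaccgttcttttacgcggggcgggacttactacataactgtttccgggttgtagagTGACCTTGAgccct
Ndufs7, chr10:80249199-80249498, plus strand: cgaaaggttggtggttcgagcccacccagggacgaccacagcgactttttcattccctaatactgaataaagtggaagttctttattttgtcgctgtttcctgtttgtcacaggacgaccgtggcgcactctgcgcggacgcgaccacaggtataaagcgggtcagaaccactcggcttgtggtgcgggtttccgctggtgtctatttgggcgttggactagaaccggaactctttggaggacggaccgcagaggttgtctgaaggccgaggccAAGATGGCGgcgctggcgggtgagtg
In Cycs the motif began 61 bases before the start, in Atp5g2 42 and 41 bases before, and in Uqcr 66 and 5 bases before. The Sdhd and Ndufs7 matches lay within the transcript, beginning 36 and 24 bases after the start. All 84 members matched a RefSeq gene, 82 by accession and 2 by symbol, and 68 had a window in the promoter table. The NRF1 motif was in 13.2% of the 68 member genes and in 1.95% of all 27025 genes of the table, the YY1 motif in 10.3% and 1.64%, the ERR motif in 2.94% and 0.466%, and the GABP motif in 7.35% and 4.31%. At least 1 of the 4 motifs, searched on both strands, was in 22 of 68 member genes (32.4%), against 7.93% of all genes. Among members with a window, it was in 16 of the 42 that fell in WT hearts after TAC (38.1%) and in 6 of the 26 others (23.1%). These are shares of letter matches and no test was made of them.

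The first comparison asks how the members responded to 10 weeks of pressure overload in WT hearts. No member rose and 47 of 82 fell (limma, Benjamini-Hochberg adjusted p under 0.05 over all 15760 genes tested), where 10.9% of all genes rose and 17.5% fell. The members' median log2 change was -0.33, or 79.6% of the baseline signal, against -0.06 for all genes, and 78 of 82 had a lower mean after TAC. In 58 of 82 members every WT TAC array lay below every WT baseline array (70.7%, against 17.3% of all genes), and the 47 called members were all among these. Whether fewer cardiomyocytes or less RNA per cell lies behind a lower signal cannot be told apart in whole tissue. The count depended on the processing: it was 30 with arrays scaled on their median, 26 without the filter on dim probes, 21 with scan day as a block and 25 without WT TAC array 4, and the median change was -0.16 after quantile normalization, -0.14 with normexp added and -0.19 with the authors' values. In each of these 3 settings, and without NOS3-TG TAC array 4 or WT TAC array 1, 1 member, Cox7c, rose. With the mean atrial signal as a covariate, an alternative chosen after seeing the data, the count was 56 and the median change -0.35. With the summed atrial signal the count was 59 and the median change -0.36.

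In NOS3-TG hearts the same comparison gave 1 rise and 6 falls among 82 members, where 6.47% of all genes rose and 5.34% fell. The median log2 change was -0.14, or 90.7% of the baseline signal, with 74 of 82 members lower after TAC, against -8e-04 for all genes. In 6 members (7.32%, against 7.45% of all genes) the TAC arrays all lay below the baseline arrays. The 6 that passed as lower had also passed as lower in WT hearts: Sdhc, Sdha, Ndufs1, Ndufa3, Ndufa7 and Atp5d. The count of 7 moved between 1 and 16 over the alternatives, and without the 3 arrays of extreme share above background it was 1, a fall. With scan day as a block and with the compared groups alone the 1 call was the rise of Cox7c, and no member fell. The median change was -0.08 with arrays scaled on their median and -0.09 after quantile normalization and without NOS3-TG baseline array 3. Without NOS3-TG baseline array 2 it was -0.22. As a covariate, the mean atrial signal gave -0.19 and the summed atrial signal -0.24.

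**Figure D1:**
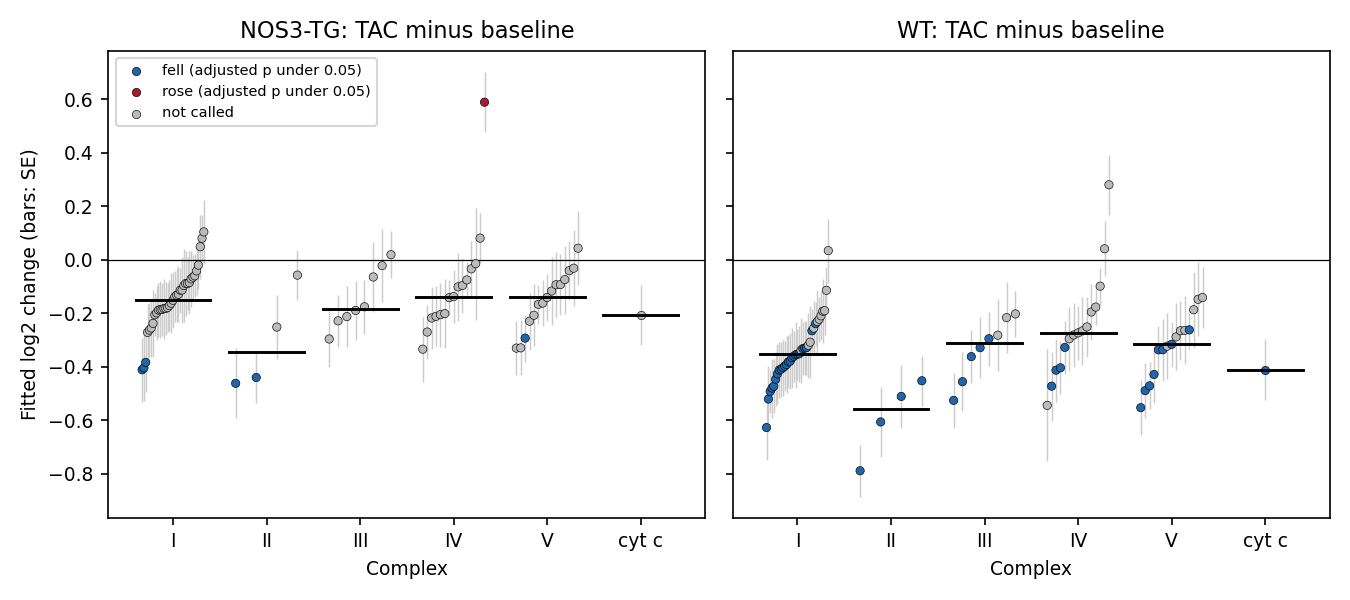
Fitted log2 change after TAC of each subunit and of cytochrome c, by complex, in NOS3-TG hearts (left) and WT hearts (right); bars are SE, black lines are complex medians and blue and red points passed the test. Complex II has the lowest median in both panels, -0.35 in NOS3-TG and -0.56 in WT, and the only red point is Cox7c in NOS3-TG at 0.59.

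Complex II, succinate dehydrogenase, links the citric acid cycle to the chain and has 4 subunits, all nuclear-encoded. In NOS3-TG hearts 2 of 4 fell (5.34% of all genes did), with a median log2 change of -0.35. In WT hearts all 4 fell (17.5% of all genes did), with a median of -0.56. Sdhc, one of its membrane anchors, had the largest fall of any member in WT hearts. It read 5.03, 5.11, 5.01 and 5.10 on the NOS3-TG TAC arrays, against 5.48, 5.27, 5.64 and 5.62 on the NOS3-TG baseline arrays. In WT mice Sdhc read 5.00, 5.07, 4.94 and 4.88 after TAC, against 5.55, 5.85, 5.75 and 5.91 at baseline. All TAC arrays were below all baseline arrays in both genotypes. The fitted change was -0.44 ± 0.10 in NOS3-TG (SE, adjusted p = 0.0125) and -0.79 ± 0.10 in WT (adjusted p = 0.000238), where TAC left 57.9% of the baseline signal. Sdhc kept its call in WT hearts under all 30 alternatives run, and in NOS3-TG hearts under 28 of them.

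Sdha, the flavoprotein that oxidises succinate, read 4.46, 5.08, 4.78 and 4.91 in NOS3-TG hearts after TAC, against 5.27, 5.06, 5.47 and 5.28 at baseline. These groups overlapped by 1 array, NOS3-TG TAC 2. In WT hearts Sdha read 5.04, 5.30, 5.00 and 4.92 after TAC, against 5.48, 5.74, 5.59 and 5.87 at baseline, with no overlap. Its change was -0.46 ± 0.13 in NOS3-TG (adjusted p = 0.0374) and -0.61 ± 0.13 in WT (adjusted p = 0.00486). The NOS3-TG call was lost under 15 of 30 alternatives. Sdhb, the iron-sulphur subunit, averaged 6.86 ± 0.21 after TAC and 7.11 ± 0.15 at baseline in NOS3-TG hearts (SD, n = 4 each) and did not pass there. In WT hearts Sdhb averaged 6.92 ± 0.20 after TAC and 7.43 ± 0.06 at baseline and fell by 0.51 (adjusted p = 0.00733). Sdhd, the other anchor, averaged 6.45 ± 0.07 after TAC and 6.51 ± 0.10 at baseline in NOS3-TG hearts, a change of -0.06 that did not pass. In WT hearts Sdhd averaged 6.30 ± 0.19 after TAC and 6.75 ± 0.06 at baseline and fell by 0.45 (adjusted p = 0.00370).

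**Figure D2:**
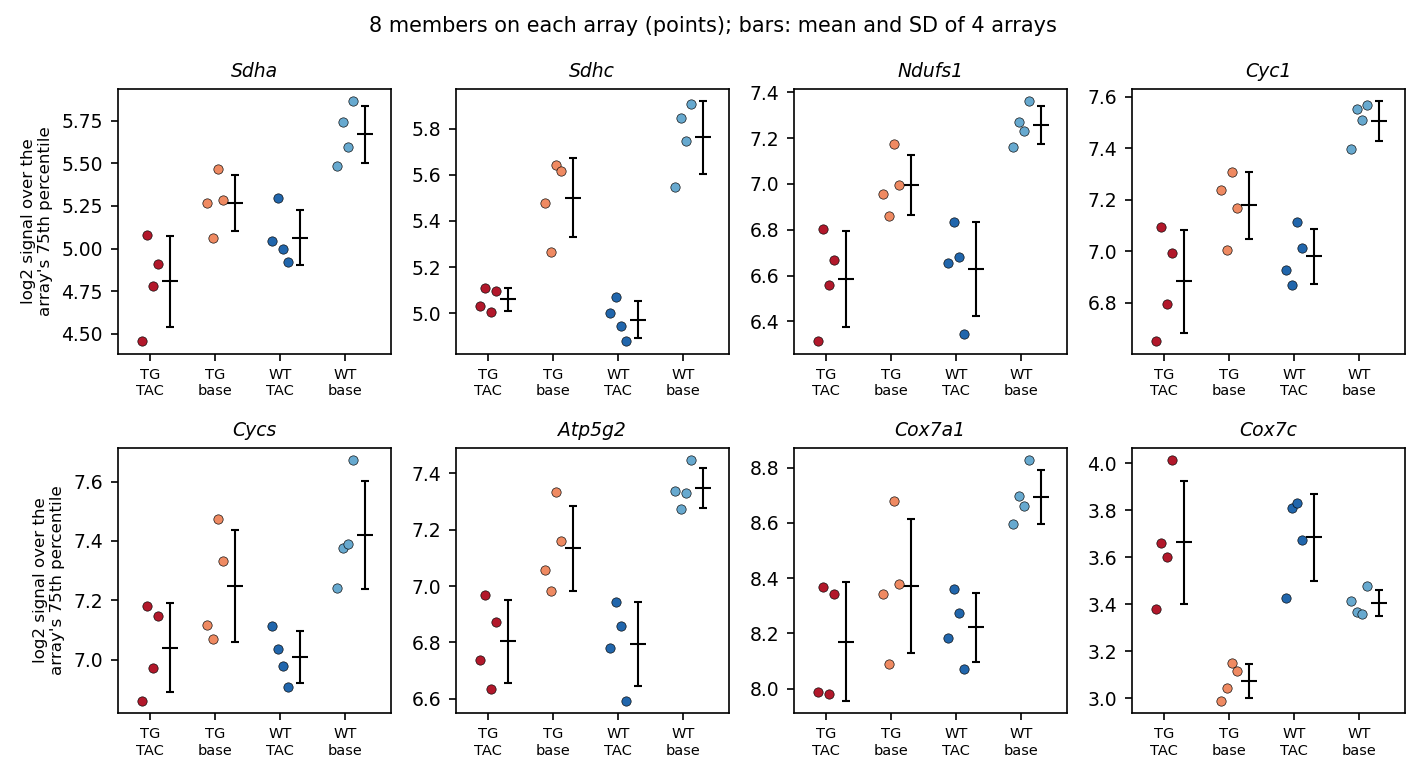
Log2 signal over the array's 75th percentile of 8 members on each of 16 arrays, in NOS3-TG TAC, NOS3-TG baseline (base), WT TAC and WT baseline mice; bars beside the points are mean and SD of 4 arrays. Sdhc shows the WT TAC arrays at 4.88 to 5.07, below the WT baseline arrays at 5.55 to 5.91, whereas the TAC arrays of Cox7c lie above the baseline arrays in NOS3-TG mice.

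In complex I, the NADH dehydrogenase, 3 of 35 subunits fell in NOS3-TG hearts after TAC (5.34% of all genes did), with a median log2 change of -0.15. In WT hearts 24 fell (17.5% of all genes did) and the median was -0.35, and none rose in either genotype. Its 7 nuclear-encoded core subunits, which carry the flavin and the iron-sulphur clusters and are conserved from bacteria, all fell in WT hearts, by 0.33 to 0.63 on the log2 scale. Among the 28 accessory subunits 17 fell. This division was made with the values known. Ndufs1, the largest core subunit, had the largest fall within complex I. It read 6.31, 6.81, 6.56 and 6.67 in NOS3-TG hearts after TAC, against 6.86 to 7.17 at baseline. In WT hearts it read 6.66, 6.84, 6.68 and 6.35 after TAC, against 7.16, 7.27, 7.23 and 7.36 at baseline. Neither genotype had overlapping groups, though the gap in NOS3-TG was narrow. Its change was -0.41 ± 0.12 in NOS3-TG (adjusted p = 0.0431) and -0.63 ± 0.12 in WT (adjusted p = 0.00270), and 18 of 30 alternatives ended the NOS3-TG call.

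The next 4 by size in WT hearts were accessory subunits. Ndufa3 fell by 0.40 in NOS3-TG (adjusted p = 0.0489) and by 0.52 in WT (adjusted p = 0.00785). Ndufc2, part of the membrane arm, had a change of -0.21 in NOS3-TG (adjusted p = 0.116) and fell by 0.49 in WT (adjusted p = 0.00108). Ndufa7 fell by 0.38 in NOS3-TG (adjusted p = 0.0398) and by 0.48 in WT (adjusted p = 0.00686). For Ndufs4, which is needed to complete the NADH-binding module, the change was -0.20 in NOS3-TG (adjusted p = 0.222) and -0.47 in WT (adjusted p = 0.00471). The NOS3-TG calls of Ndufa3 and Ndufa7 were lost under 21 and 15 of 30 alternatives. The 11 subunits of complex I that did not pass in WT hearts included Ndufb3 at -0.11 and Ndufa12 at -0.19. Ndufc1, also among them, was the only one with a higher mean after TAC (log2 change 0.03). A further Ndufc1 probe, above background on all arrays, had a lower mean after TAC in WT hearts, by 0.08. Ndufaf1, the assembly factor, averaged 3.62 ± 0.09 after TAC and 4.05 ± 0.06 at baseline in WT hearts (SD, n = 4 each) and fell by 0.42 (adjusted p = 0.00327).

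In complex III, which passes electrons from ubiquinol to cytochrome c, none of 8 subunits fell in NOS3-TG hearts and 5 of 8 in WT hearts. The shares of all genes that fell were 5.34% in NOS3-TG and 17.5% in WT. The subunit medians were -0.18 in NOS3-TG and -0.31 in WT. Cyc1, the cytochrome c1 subunit, averaged 6.88 ± 0.20 in NOS3-TG hearts after TAC and 7.18 ± 0.13 at baseline (SD, n = 4 each). In WT hearts it read 6.93, 6.87, 7.12 and 7.01 after TAC, against 7.40, 7.55, 7.51 and 7.57 at baseline. The WT groups were apart and the NOS3-TG groups overlapped. Its change was -0.30 ± 0.10 in NOS3-TG (adjusted p = 0.0799) and -0.53 ± 0.10 in WT (adjusted p = 0.00299), and no alternative ended the WT call. Uqcrc2, a core protein, fell by 0.46 in WT hearts (adjusted p = 0.00888), Uqcr by 0.36, Uqcrc1, the other core protein, by 0.33, and Uqcrh, the hinge protein, by 0.30. The calls of Uqcrc1 and Uqcrh were lost under 16 and 18 of 30 alternatives, and Uqcrh was at 0.001 with normexp background correction and quantile normalization. Uqcrfs1, the Rieske iron-sulphur protein, had a change of -0.28 that did not pass.

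Cytochrome c itself, the mobile carrier between complexes III and IV, averaged 7.04 ± 0.15 after TAC and 7.25 ± 0.19 at baseline in NOS3-TG hearts (SD, n = 4 each), a change of -0.21 that did not pass. In WT hearts Cycs read 7.11, 7.04, 6.98 and 6.91 after TAC, against 7.24, 7.38, 7.39 and 7.67 at baseline. All WT TAC arrays were lower, and Cycs fell by 0.41 ± 0.11 (adjusted p = 0.0173), or to 75.2% of the baseline signal. The call was lost under 5 of 30 alternatives.

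In complex V 1 of 15 subunits fell in NOS3-TG hearts, near the 5.34% of all genes, with a median log2 change of -0.14. In WT hearts 8 of 15 fell (17.5% of all genes did), with a median of -0.32. Atp5g2, one of 3 genes that encode the same mature c-ring protein, read 6.74, 6.97, 6.64 and 6.87 in NOS3-TG hearts after TAC, against 7.06, 6.98, 7.33 and 7.16 at baseline. In WT hearts it read 6.78, 6.94, 6.86 and 6.59 after TAC, against 7.34, 7.27, 7.33 and 7.45 at baseline. The groups were apart in both genotypes, narrowly in NOS3-TG. Its change was -0.33 ± 0.10 in NOS3-TG (adjusted p = 0.0543) and -0.55 ± 0.10 in WT (adjusted p = 0.00223). Atp5g1, another gene of the c-ring, had a change of -0.33 in NOS3-TG (adjusted p = 0.0515) and fell by 0.49 in WT (adjusted p = 0.00403), while Atp5g3 at -0.27 did not pass in WT.

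Of 5 genes of the F1 part of the synthase 2 fell in WT hearts, Atp5d (delta) by 0.47 and Atp5e (epsilon) by 0.43. Atp5a1 (alpha, log2 change -0.26), Atp5b (beta, -0.15) and Atp5c1 (gamma, -0.29) did not pass. Whether the changes of these 5 genes differ from each other was not tested. By difference of group means, further probes gave -0.37 for Atp5a1 and -0.30 and -0.43 for Atp5b in WT hearts. In NOS3-TG hearts they gave -0.14 for Atp5a1 and -0.23 and -0.24 for Atp5b, where the Atp5b probe used gave 0.04. These probes were above background on all arrays and were not tested singly. Atp5d averaged 5.57 ± 0.14 after TAC and 5.86 ± 0.11 at baseline in NOS3-TG hearts (SD, n = 4 each) and fell by 0.29 (adjusted p = 0.0466), a call lost under 20 of 30 alternatives. Atp5j, the coupling factor 6 subunit, fell by 0.34 in WT hearts.

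Of the 15 measured subunits of complex IV, cytochrome c oxidase, 1 rose and none fell in NOS3-TG hearts, and none rose and 4 fell in WT hearts. Its medians were -0.14 in NOS3-TG and -0.27 in WT. Over all genes 6.47% rose and 5.34% fell in NOS3-TG, and 10.9% rose and 17.5% fell in WT. The subunits that fell in WT hearts were Cox7a1 (by 0.47), Cox5b (by 0.41), Cox7b (by 0.40) and Cox8b (by 0.33). Cox7a1 and Cox8b are forms found in heart and skeletal muscle. Of those that did not pass, the log2 change in WT hearts was -0.28 for Cox4i1, -0.27 for Ndufa4, -0.30 for Cox6a2, -0.18 for Cox6a1, -0.25 for Cox6b1 and -0.54 ± 0.21 (SE) for the dim Cox6b2. Cox7a2 and Cox8a, the widely expressed partners of Cox7a1 and Cox8b, had changes of 0.04 and -0.10. Calls of Cox5b, Cox8b and Cox7a1 were lost under 7, 12 and 2 of 30 alternatives.

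Cox7c was the only member that rose. It read 3.38, 3.66, 3.60 and 4.01 in NOS3-TG hearts after TAC, against 2.99, 3.04, 3.15 and 3.12 at baseline, without overlap. In WT hearts it read 3.43, 3.81, 3.83 and 3.67 after TAC, against 3.41, 3.37, 3.36 and 3.48 at baseline, with overlap. Its change was 0.59 ± 0.11 in NOS3-TG (adjusted p = 0.00637) and 0.28 ± 0.11 in WT (adjusted p = 0.0806), and the NOS3-TG call was lost only without the 3 arrays of extreme share above background, at 0.42 (adjusted p = 0.101). In WT hearts Cox7c passed as higher after quantile normalization (0.35, adjusted p = 0.0249), with normexp and quantile normalization (0.36, adjusted p = 0.0167), with the authors' values (0.34, adjusted p = 0.0263) and without NOS3-TG TAC array 4 or WT TAC array 1. A dimmer probe that the array's description assigns to the same protein, TC1410591, chosen after its values were seen, had changes of -0.27 ± 0.17 in NOS3-TG and -0.36 ± 0.17 in WT (adjusted p = 0.313 and 0.127). The pair of probes gave opposite signs for this subunit.

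Several subunits of complex IV exist in a form for heart and skeletal muscle and a widely expressed one, and the ratio of a pair on 1 array does not depend on how arrays are scaled. Of the pairs, 4 could be measured, and in 1 of them, Cox6b2 and Cox6b1, the restricted form is known from testis and not from muscle. The log2 difference Cox7a1 minus Cox7a2 was 2.63, 2.81, 2.64 and 2.88 on the NOS3-TG TAC arrays, against 3.11, 2.78, 3.35 and 2.84 on the NOS3-TG baseline arrays. In WT mice it was 2.71, 2.92, 2.86 and 2.76 after TAC, against 3.36, 3.49 and 3.20 at baseline, where 1 array had an outlier spot for Cox7a2. The WT groups were apart and the NOS3-TG groups overlapped. Averaged over genotypes the difference was lower by 0.41 after TAC (exact permutation test of TAC within genotype over 2450 arrangements, two-sided, p = 0.00204, adjusted over 4 pairs p = 0.00816, 15 arrays). The shift was -0.28 in NOS3-TG and -0.54 in WT. The mean of both Cox7a2 probes gave -0.42. In the authors' table, which keeps the outlier spot, the difference was -0.97.

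None of the other pairs passed. Cox8b minus Cox8a averaged 1.05 ± 0.13 after TAC and 1.11 ± 0.10 at baseline in NOS3-TG hearts, and 1.22 ± 0.15 after TAC and 1.45 ± 0.08 at baseline in WT hearts (SD, n = 4 each). Its shift of -0.15 had an adjusted p of 0.0710 in the exact permutation test. Cox6a2 minus Cox6a1 shifted by -0.09 (exact permutation, adjusted p = 0.209) and Cox6b2 minus Cox6b1 by -0.05 (adjusted p = 0.725), with opposite signs in the genotypes, 0.20 in NOS3-TG and -0.29 in WT. The partner of Cox4i1 was below background, and Ndufa4l2 has no probe of that name.

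**Figure D3:**
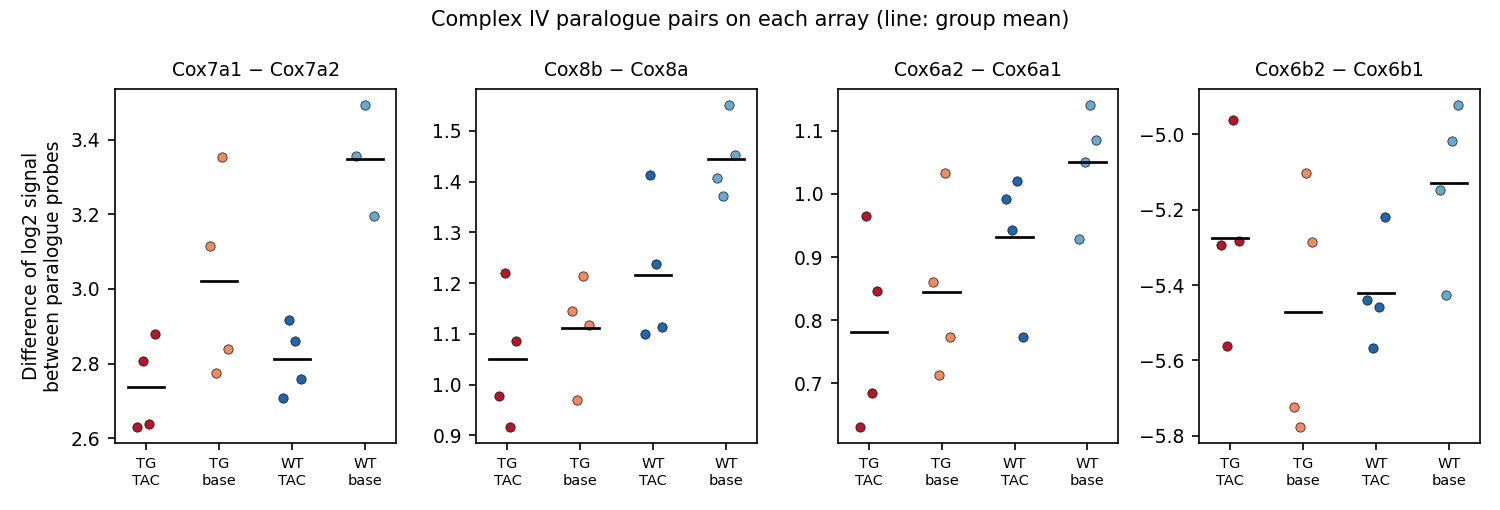
Difference of log2 signal between the muscle or tissue-restricted and the widely expressed paralogue of 4 complex IV subunits on each array, in NOS3-TG TAC, NOS3-TG baseline (base), WT TAC and WT baseline mice; lines are group means. For Cox7a1 minus Cox7a2 the WT TAC arrays lie at 2.71 to 2.92, below the WT baseline arrays at 3.20 to 3.49.

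Whether the response to TAC differed between genotypes was tested as the interaction, the NOS3-TG change minus the WT change. No member passed (0 of 82, limma), 5 had an unadjusted p under 0.05, and 0% of all genes passed. The median interaction over members was 0.19, against 0.07 for all genes. The 3 members with the smallest p were Sdhd at 0.39 ± 0.13 (SE, adjusted p = 0.655), Ndufaf1 at 0.30 ± 0.12 (adjusted p = 0.665) and Sdhc at 0.35 ± 0.14 (adjusted p = 0.665). The larger number of calls in WT than in NOS3-TG hearts is thus not shown to be a difference between them. The median interaction was 0.05 after quantile normalization (0.0534), and 0.06 with normexp and quantile normalization (0.058) and with the authors' values (0.0646). It was 0.15 with the mean and 0.12 with the summed atrial signal as a covariate. Without NOS3-TG baseline array 2 it was 0.11 and without WT TAC array 4 0.12.

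Between genotypes without load, no member passed (0 of 82, limma), where 0.425% of all genes did. The members' median was -0.21 in NOS3-TG minus WT, against -0.06 for all genes, with 79 of 82 lower in NOS3-TG and 29 at an unadjusted p under 0.05. In 22 members (26.8%, against 6.07% of all genes) every NOS3-TG baseline array was below every WT baseline array. Ndufs8, a core subunit of complex I, read 4.34, 4.24, 4.53 and 4.44 in NOS3-TG baseline hearts, against 4.84, 4.73, 4.67 and 4.90 in WT baseline hearts. Its difference was -0.40 ± 0.10 (SE, adjusted p = 0.135), the smallest p of the members, and it passed with normexp background correction and quantile normalization (-0.36, adjusted p = 0.0342). Uqcrb, at -0.30 ± 0.09 (adjusted p = 0.180), and Ndufs3, at -0.34 ± 0.10 (adjusted p = 0.188), were next. By slide, the median difference over members was -0.28 on slide 1 and -0.14 on slide 4. The median was -0.07 after quantile normalization and -0.14 without the 3 arrays of extreme share above background. It was -0.18 with the mean and -0.16 with the summed atrial signal as a covariate.

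Between genotypes after TAC no member passed (0 of 82, limma), 1 had an unadjusted p under 0.05, and 0.260% of all genes passed. The median NOS3-TG minus WT difference was -0.02, with 50 of 82 members lower in NOS3-TG, and it was 0.02 with arrays scaled on their median. Within slides it was -0.03 on slide 2 and -0.01 on slide 3. Cox8a at 0.15 ± 0.07 (SE, adjusted p = 0.394) and Sdha at -0.26 ± 0.13 (adjusted p = 0.456) had the smallest p. The medians of the arrays show the 4 groups together: over all subunits, relative to the mean of WT baseline, the NOS3-TG TAC arrays lay between -0.54 and -0.19, the NOS3-TG baseline arrays between -0.38 and -0.05, the WT TAC arrays between -0.47 and -0.25 and the WT baseline arrays between -0.10 and 0.13. The WT TAC and WT baseline arrays did not overlap, and those of NOS3-TG did. The TAC comparison in WT and the genotype comparison at baseline share the WT baseline arrays.

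**Figure D4:**
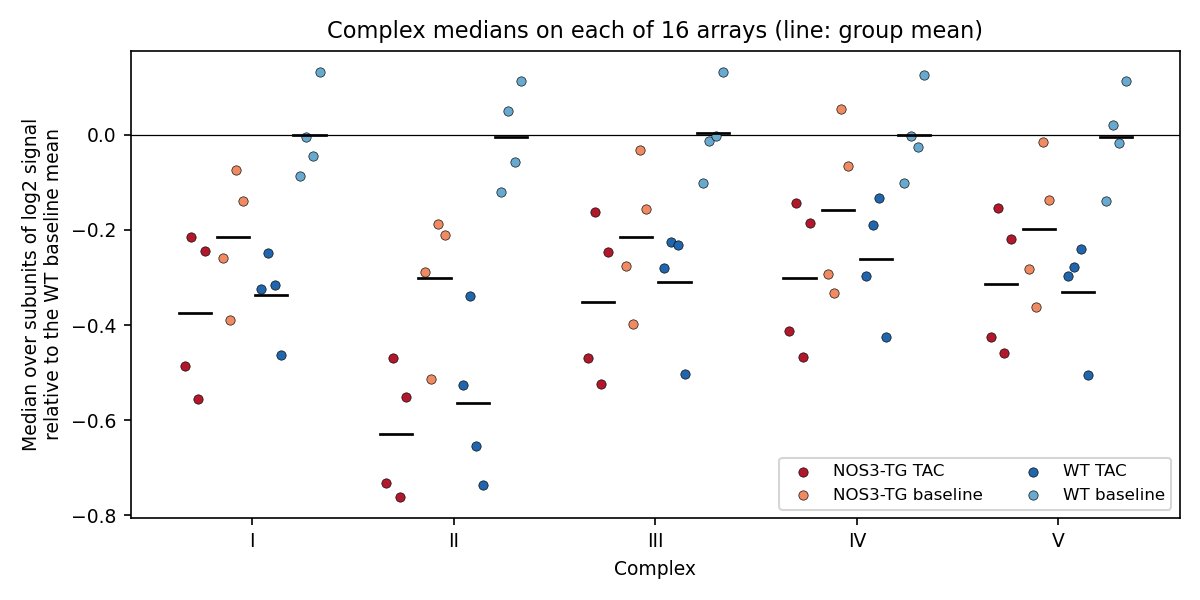
Median over the subunits of each complex of log2 signal relative to the mean of the WT baseline arrays, 1 point per array; lines are group means of 4 arrays. In complex II the NOS3-TG TAC arrays lie between -0.76 and -0.47 and the WT TAC arrays between -0.74 and -0.34, below the WT baseline arrays between -0.12 and 0.11.

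Within 3 of the 4 groups the arrays with little atrial signal had the highest subunit medians. These were -0.19 and -0.24 on the low-atrial NOS3-TG TAC arrays 2 and 4, against -0.47 and -0.54 on the other NOS3-TG TAC arrays. At baseline they were -0.05 on NOS3-TG array 3, where the other NOS3-TG arrays had -0.38 to -0.14, and 0.13 on WT array 4, where the other WT arrays had -0.10 to 0.00. In WT TAC mice the low-atrial arrays 2 and 4 held both the highest median, -0.25, and the lowest, -0.47. In the TAC groups the arrays with little atrial signal were the females.

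**Figure D5:**
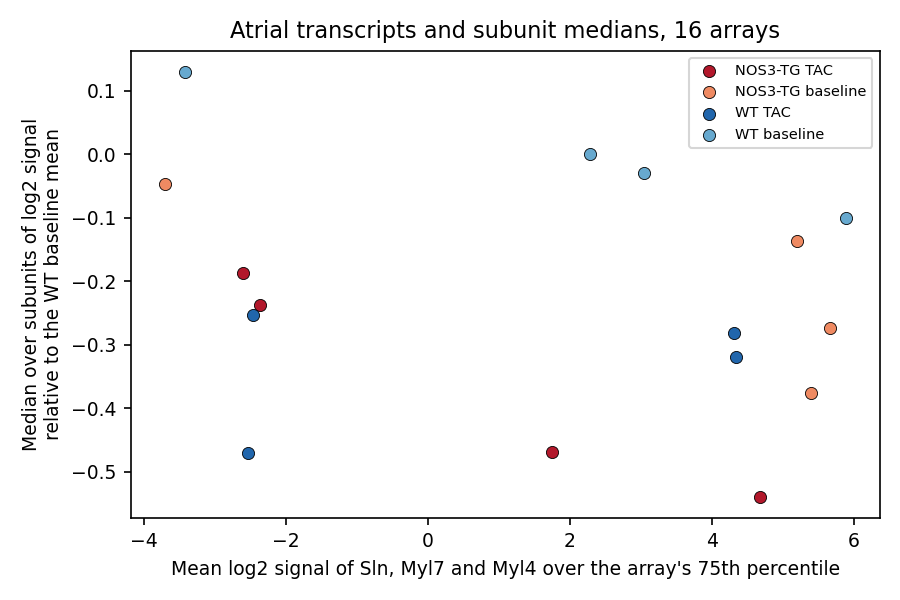
Mean log2 signal of the atrial transcripts Sln, Myl7 and Myl4 (x axis) and median log2 signal over subunits relative to the WT baseline mean (y axis), 1 point per array, coloured by group. Arrays of each group lie at both ends of the x axis. The WT TAC arrays with little atrial signal lie at -0.25 and -0.47 on the y axis, and the others at -0.32 and -0.28.

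Between the sexes no member passed (0 of 82, limma), 2 had an unadjusted p under 0.05, and 1.33% of all genes passed. The median male minus female difference over members was -0.06, with 79 of 82 lower in males, and within slides it ran from -0.17 on slide 2 to 0.00 on slide 1 (0.0034). Ndufa12 at -0.16 ± 0.06 (SE, adjusted p = 0.233), Atp5k at -0.14 ± 0.06 (adjusted p = 0.267) and Cox7a2 at -0.14 ± 0.07 (adjusted p = 0.332) had the smallest p. The median was -0.01 with arrays scaled on their median (-0.0145), -0.03 after quantile normalization, -0.10 without NOS3-TG baseline array 2, -0.09 without WT TAC array 4 or NOS3-TG baseline array 3 (-0.0884 and -0.095), and 0.01 with the atrial mean as a covariate.

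Other genes of the pathway also changed in WT hearts after TAC. Of all genes tested, 10.9% rose and 17.5% fell in WT hearts, and 6.47% rose and 5.34% fell in NOS3-TG hearts. Among transcriptional regulators of mitochondrial genes, activators and repressors alike, 7 of 13 fell and none rose: Ppargc1a (PGC-1alpha, the coactivator of mitochondrial biogenesis) by 0.76 ± 0.21 (SE, adjusted p = 0.0180), Ppargc1b by 0.62, Ppara by 0.58, Esrra (ERRalpha) by 0.45, Tfb1m by 0.39, Nrip1 (RIP140, a corepressor of oxidative genes) by 0.32 and Tfam by 0.26. In NOS3-TG hearts 1 of 13 fell, Ppara by 0.58 (adjusted p = 0.0431). Of 18 assembly factors 1 rose and 1 fell in NOS3-TG hearts, Sco1, a copper chaperone of complex IV, by 0.37 and Foxred1, a factor of complex I, by 0.27. These NOS3-TG counts of regulators and assembly factors are near the shares of all genes. In WT hearts 9 of the 18 fell, led by Tmem70, needed for the ATP synthase, by 0.56, Foxred1 by 0.49, Atpaf1 by 0.49 and Hccs, which attaches haem to cytochrome c, by 0.48. Of 19 genes of mitochondrial import and mass none passed in NOS3-TG hearts and 10 fell in WT hearts, among them the import pore Tomm40 by 0.51, the chaperone Hspd1 by 0.48, citrate synthase (Cs) by 0.45 and Opa1, which fuses inner membranes, by 0.43. None of 4 further genes of the complexes that the prefixes miss passed in either genotype: 2010107E04Rik, Usmg5, Atpif1, the inhibitor of the synthase's ATPase activity, and Cox17, a copper chaperone of complex IV. The 3 probes that the array describes as mitochondrially encoded subunits of complexes I and IV, chosen after their values were seen, had changes of -0.07 to 0.07 in NOS3-TG and -0.21 to -0.15 in WT hearts, and none passed.

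Markers of other cells also moved in WT hearts after TAC. Of 10 macrophage markers 7 rose, of 10 fibroblast markers 5 and of 9 endothelial markers 4, and none of these fell. Of 17 cardiomyocyte markers 3 rose and 1 fell, with a median of -0.15. The summed signal of the macrophage markers was 101300 to 131200 units in WT TAC hearts and 75270 to 93990 in WT baseline hearts, without overlap. For cardiomyocyte markers it was 3321000 to 4191000 units in WT TAC hearts and 3572000 to 4414000 in WT baseline hearts, for fibroblast markers 263700 to 420200 in WT TAC and 205000 to 331700 in WT baseline hearts, and for endothelial markers 115900 to 134600 in WT TAC and 107300 to 121400 in WT baseline hearts, all with overlap. In NOS3-TG hearts after TAC 2 of 10 macrophage, 2 of 10 fibroblast, 1 of 9 endothelial and 1 of 17 cardiomyocyte markers rose. The share over all genes was 6.47%. At baseline 2 of 10 macrophage markers were higher in NOS3-TG than in WT hearts, where 0.425% of all genes passed in either direction. Their list had sums of 106400 to 127800 units in NOS3-TG and 75270 to 93990 in WT. The adipocyte markers Ucp1 and Lep were not well above background. The part of these shifts in the members' changes was not tested.

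The brightest probe was not the only one for every gene. Of 26 members with over 1 probe, 25 further probes were above background on all arrays, and all 25 had a lower mean after TAC in WT hearts, by 0.01 to 0.93 on the log2 scale, 13 of them by more than the probe used. Near-identical pseudogenes are known for many of these genes and the array does not separate their transcripts.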

How the data were processed

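RNA of 16 mouse ventricles was measured on one-colour Agilent arrays. The deposited scanner files hold each spot's intensity after background subtraction and detrending by Agilent Feature Extraction (version 9.5.1.1, per the file headers), not normalized between arrays. The authors also deposited log2 values for 22057 probes, with the normalization not given in the sources used here. Across probes, which are no replicates, each column tracked its own array's log2 signal (r from 0.9996), and column medians were 9.95 to 9.99, so genes were not centred. They served as an alternative.

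Control and outlier spots were left out, which left 41174 probes. Log2 signal minus the array's 75th percentile was fitted in limma 3.58.1 (R 4.3.3, the data.table package, version 1.17.8) with 4 group means and sex, over the 15760 genes whose brightest probe passed the scanner's background test on 4 or more of 16 arrays. A call needed an adjusted p (Benjamini-Hochberg, two-sided) under 0.05. Gene names are those of the files. The fit was tested on simulated data. Complex IV paralogue ratios were compared by exact permutation. Figures and motif searches used Python 3.11.15 with pandas 2.3.3 and matplotlib 3.10.9.

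The members and lists were chosen with earlier results of these data known. In the TAC comparisons the text names the subunits of complex II, Cyc1, Cycs, the complex IV paralogues, up to 5 called members per complex by size in WT, all called in NOS3-TG, and otherwise the 3 smallest p, of which 1 is not reported here. From the other pathway lists it names up to 4 called genes in each direction by size, and the remaining ones of regulators. The atrial, cardiomyocyte, fibroblast, endothelial, macrophage, adipocyte and smooth muscle markers and the motifs were fixed lists. After TAC the 8 markers of smooth muscle and pericytes gave 1 rise and 1 fall in NOS3-TG hearts, and 1 rise and 2 falls in WT hearts. Over all genes 6.47% rose and 5.34% fell in NOS3-TG, and 10.9% rose and 17.5% fell in WT. None of 3 adipocyte markers passed in either genotype.

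Alternatives were quantile normalization, array medians, normexp (offset 50) with quantile normalization, the authors' values, the dim-probe filter, all probes of a gene, the sex term, scan day and slide as blocks, the compared groups alone and leaving out arrays. The labels give the mice as biological repeats, and the number of arrays limits the precision.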

Additional observations from a re-analysis of the deposited data

Results flagged for a closer look

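The gap rule for single samples was applied to 183 sets of 4 arrays. Each set was a named member, or the median of a complex or of all subunits, in 1 group. Chance alone marks about 1 in 20 such sets. It marked 4. Atp5j, the coupling factor subunit of complex V, read 6.93 on WT TAC array 4, below the other WT TAC arrays at 7.13 to 7.17. Uqcrh, the hinge protein of complex III, read 7.69 on the same array, which also held the lowest subunit median of the WT TAC group. Cox8a read 5.74 on NOS3-TG TAC array 3, below the others of that group at 5.85 to 5.86. Cox8b read 7.35 on WT baseline array 4, above the others of that group at 7.17 to 7.19. The cause of these gaps was not tested.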

How the results depend on the processing

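For the comparison of TAC with baseline in WT hearts, 47 calls became 30 with arrays scaled on their median, 26 without the filter on dim probes (more genes were tested) and 21 with scan day as a block. Leaving out single arrays gave 25 (without WT TAC array 4) to 52. In NOS3-TG hearts 7 calls became 12 after quantile normalization, 2 with median scaling, 16 with the authors' values, 2 without the filter, 1 without the 3 arrays of extreme share above background, 1 with scan day as a block, 4 with slide as a random block (correlation 0.06), 1 with the compared groups alone and 12 with the mean atrial signal as a covariate, an alternative chosen after seeing the data. With scan day as a block and with the compared groups alone the 1 call was the rise of Cox7c, and no member fell. Leaving out single arrays gave 2 (without 9 of the 16 arrays in turn) to 13 (without NOS3-TG baseline array 2). Between genotypes at baseline 0 calls became 1, Ndufs8, under normexp with quantile normalization. The counts of the other comparisons stayed at 0 under every alternative run. With single arrays left out, the shift of Cox8b minus Cox8a ran from -0.1783 to -0.1234 and passed without WT TAC array 2, NOS3-TG TAC array 2 or NOS3-TG baseline array 2, and that of Cox6b2 minus Cox6b1 ran from -0.1002 to 0.0134. Uqcrh in WT hearts turned to 0.001 under normexp with quantile normalization. Except where a setting tests other genes or fewer arrays, the cause was not tested. No paired analysis was possible because the replicate numbers follow the order of the samples only, while slide as a fixed block, which both genotypes and sexes share, left the counts of the genotype, interaction and sex comparisons at 0. Signal over background limits Cox4i2 and Cox8c, which could not be measured, and Cox6b2 is dim.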
